A study of Mus musculus with 6 samples.

Results

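MicroRNAs that are tied to blood-borne immune cells were followed in small RNA libraries of the mouse spinal cord. They are miR-150-5p, both arms of miR-342 and both arms of miR-511, and were chosen by name from the 1482 rows of a deposited miRNA table, in which all 5 members were present. The 6 libraries came from cord tissue of about 1 cm around the T10 level, taken on day 2 after surgery. For the 3 control-labelled libraries the labels give mice with a laminectomy, the opening of the vertebral arch, and the cord left uninjured. For the 3 SCI-labelled libraries (SCI, spinal cord injury) the labels give the same laminectomy followed by a moderate contusion from a 10 g weight dropped 20 mm. The direction of these labels is in doubt, as set out below. The sources used here do not give strain, age or sex. Tissue was taken whole, so each library mixes neurons, glia, vessels and the blood cells that were present.

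MicroRNAs are short RNAs that guide Argonaute proteins to messenger RNAs, mainly through their seed, bases 2 to 8 from the 5′ end. Each is cut from a hairpin precursor, and the 5p and 3p products are the arms of that hairpin. miR-150 is abundant in mature B, T and natural killer cells and is known as a regulator of the transcription factor Myb. miR-342 is made from an intron of Evl, a gene for an actin regulator, and is found in lymphoid and myeloid cells and also in nervous tissue. miR-511 is made from an intron of Mrc1, which encodes the mannose receptor CD206 of tissue macrophages.

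Mature sequences of 3 of the 5 members were matched by name in RefSeq (GRCm38.p6). The capitals mark the seed, and the sequences are shown because they set apart the arms that are compared later. The minor arm of miR-150, which is not a member, is printed with them as the partner of miR-150-5p.
mmu-miR-342-5p: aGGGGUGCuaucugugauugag
mmu-miR-342-3p: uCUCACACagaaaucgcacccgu
mmu-miR-511-3p: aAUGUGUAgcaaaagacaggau
mmu-miR-150-3p: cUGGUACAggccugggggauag
None of these 4 seeds was shared with another, and 0 other mature miRNAs of the RefSeq table carry any of them. The lengths are 22 bases for miR-342-5p, 23 for miR-342-3p and 22 for miR-511-3p, so a level per read compares arms of nearly equal length. miR-511-3p has the lowest share of G and C of the 3, at 36.4%, against 50% for miR-342-5p and 52.2% for miR-342-3p.

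The 3 hairpins lie on different chromosomes of GRCm38, the assembly that mm10 denotes. In GENCODE M21, Mir342 lies at chr12:108658620-108658718 on the plus strand, in intron 3 of 13 of the principal Evl transcript and on the strand of Evl. Its sequence is given whole, since it is the hairpin here with both arms well above the count filter, with the 5p arm (hairpin bases 19 to 40) and the 3p arm (bases 61 to 83) in capitals.
Mir342: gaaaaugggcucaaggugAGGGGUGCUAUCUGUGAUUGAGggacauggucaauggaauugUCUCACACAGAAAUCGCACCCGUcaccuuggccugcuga
Mir511 lies at chr2:14261003-14261081 on the plus strand, in intron 5 of 29 of Mrc1, again on the strand of its host. Mir150 lies at chr7:45121757-45121821 on the plus strand and overlaps no other GENCODE gene.

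The direction of the group labels has to be read with care. Levels are CPM, counts relative to library sizes scaled by the trimmed mean of M-values (TMM). Injury-responsive miRNAs ran against the labels, as miR-21a-5p, the most widely reported injury miRNA, shows. Its level was 12003 ± 774 CPM in SCI-labelled against 100083 ± 27262 CPM in control-labelled cord (SD, n = 3 each). In addition, column names that begin with Normal belong to the SCI-labelled samples. All groups are therefore called by their labels, and each direction is that of the labels as deposited. Libraries held 5568491 to 8889977 counts. Of the cord's own cell types, the 4 miRNAs of an oligodendrocyte list summed to between 9140 and 12102 CPM per library. The 9 of a neuron list were present too, and their sum moved with the groups, opposite to miR-150-5p and the leukocyte miRNAs described later. It ran from 70203 to 99811 CPM over control-labelled and from 130554 to 143292 CPM over SCI-labelled libraries. The largest part of it in each library was miR-9-5p. Of the 9, 5 were called higher and 0 lower, with a median log2 change of 0.79. Over all 614 tested rows 16.3% were called higher. miR-124-3p (-0.52) and miR-9-3p (-0.46) went the other way without passing. Without SCI-labelled library 3 there were 3 called higher, against 54 of all 638 rows tested. The part of this shift in the results was not tested. Control-labelled library 3 stood apart, with 37824 CPM of skeletal muscle miRNAs, while libraries 1 and 2 held 8287 and 11922 CPM. It held 14025 CPM of erythroid miRNAs, and they held 43094 and 39874 CPM. Libraries of a group differed by more than sampling noise in every pair.

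The members spanned a wide range of levels. The order was miR-342-3p, miR-150-5p, miR-342-5p, miR-511-3p and miR-511-5p, which ranked 140, 169, 423, 567 and 658 by mean level among the 1482 rows. Within each group the libraries of miR-342-3p did not overlap with those of miR-150-5p, and those of miR-150-5p did not overlap with those of miR-342-5p. The libraries of miR-342-5p also stood clear of those of miR-511-3p. The arms of miR-511 overlapped in both groups, so their order is not separated from the spread. Levels of different miRNAs also carry differences in how well each is ligated into a library, which the counts do not correct.

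**Figure D1:**
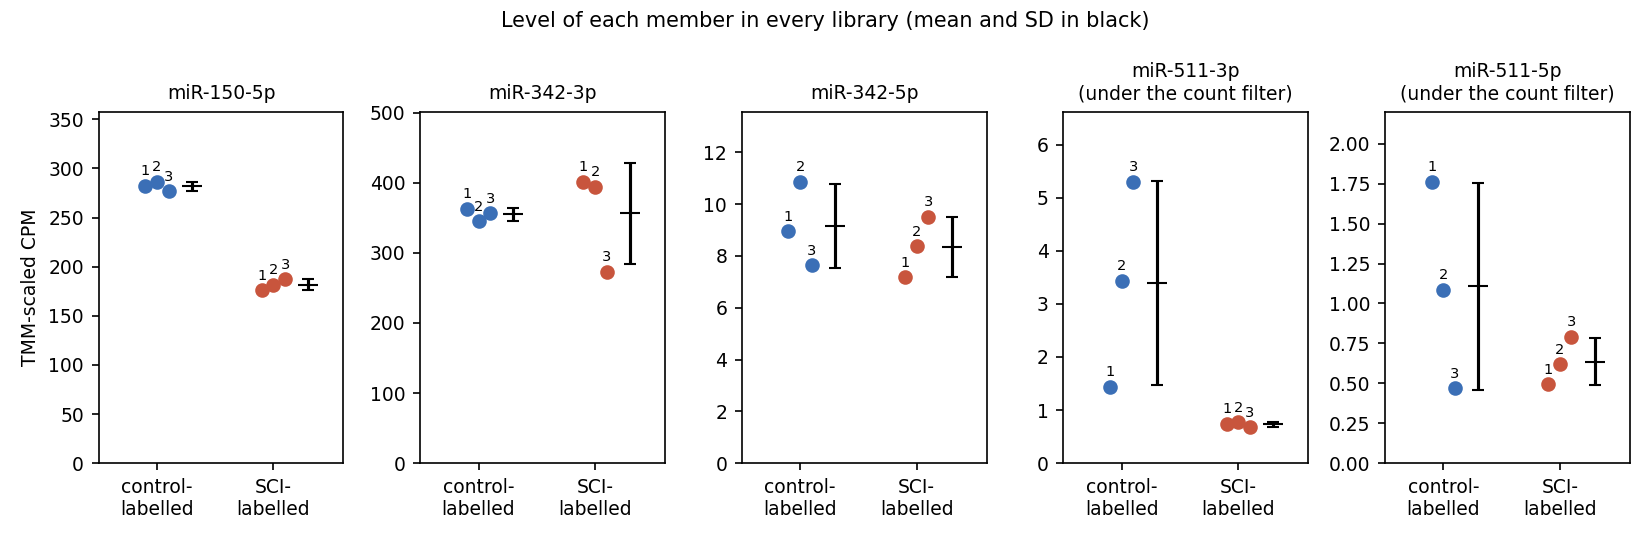
TMM-scaled CPM (y axis, from 0, a different scale in each panel) of the 5 members in the 3 control-labelled (blue) and 3 SCI-labelled (red) libraries. Points are libraries with their replicate numbers, and the black marks give the mean and SD. The groups of miR-150-5p stand apart with little spread, those of miR-342-3p and miR-342-5p overlap, and miR-511-3p is spread widely in the control-labelled group.

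miR-150-5p, the lymphocyte miRNA of the set, was lower in the SCI-labelled libraries. It had 1763, 1582 and 2350 counts in control-labelled libraries 1, 2 and 3, which is 282, 286 and 277 CPM. In SCI-labelled libraries 1, 2 and 3 it had 1422, 1173 and 1655 counts, which is 176, 182 and 187 CPM. All 3 SCI-labelled libraries were below all 3 control-labelled ones. With TMM the gap between the groups was far wider than the range within either. Scaled to the library total alone, control-labelled libraries held 267, 284 and 319 CPM and SCI-labelled ones 180, 165 and 186 CPM. The groups did not overlap there either, but the control-labelled range was wider. The control-labelled mean of 282 ± 4.86 CPM was 1.55 times the SCI-labelled mean of 182 ± 5.64 CPM (SD, n = 3 each). The log2 change was -0.63 with an SE of 0.18 (adjusted p = 0.0221 by the quasi-likelihood test of edgeR).

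This call sits among many. In the same fit 39.4% of the 614 tested rows were called, 23.1% as lower and 16.3% as higher in SCI-labelled cord, and the groups did not overlap in 51.3% of rows. miR-150-5p was among the smallest of the called falls: of the 142 rows called lower, 5 had fallen by less. With TMM its spread between libraries of a group was small for this table. The coefficient of variation was 1.72% for control-labelled and 3.10% for SCI-labelled cord, against medians of 26.8% and 14.2% over the tested rows. The model draws each row's variance toward that of the other rows, so its SE is larger than this spread alone would give.

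The call of miR-150-5p depended on 4 of the 6 libraries. edgeR's adjusted p was 0.0650 without control-labelled library 1, and 0.111, 0.105 and 0.0796 without SCI-labelled libraries 1, 2 and 3. Without control-labelled library 3, the library that stood apart, the change was -0.60 and passed (adjusted p = 0.0124 by edgeR). The call was also lost with upper-quartile scaling (log2 -0.51, edgeR adjusted p = 0.0660) and with no filter on low counts (-0.59, 0.113). DESeq2 and limma voom both called it, with adjusted p-values of 0.0041 and 0.0107. In each setting run the change was below 0, from -0.71 to -0.51. The median over all tested rows moved from -0.07 with TMM to 0.04 with the upper quartile.

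**Figure D2:**
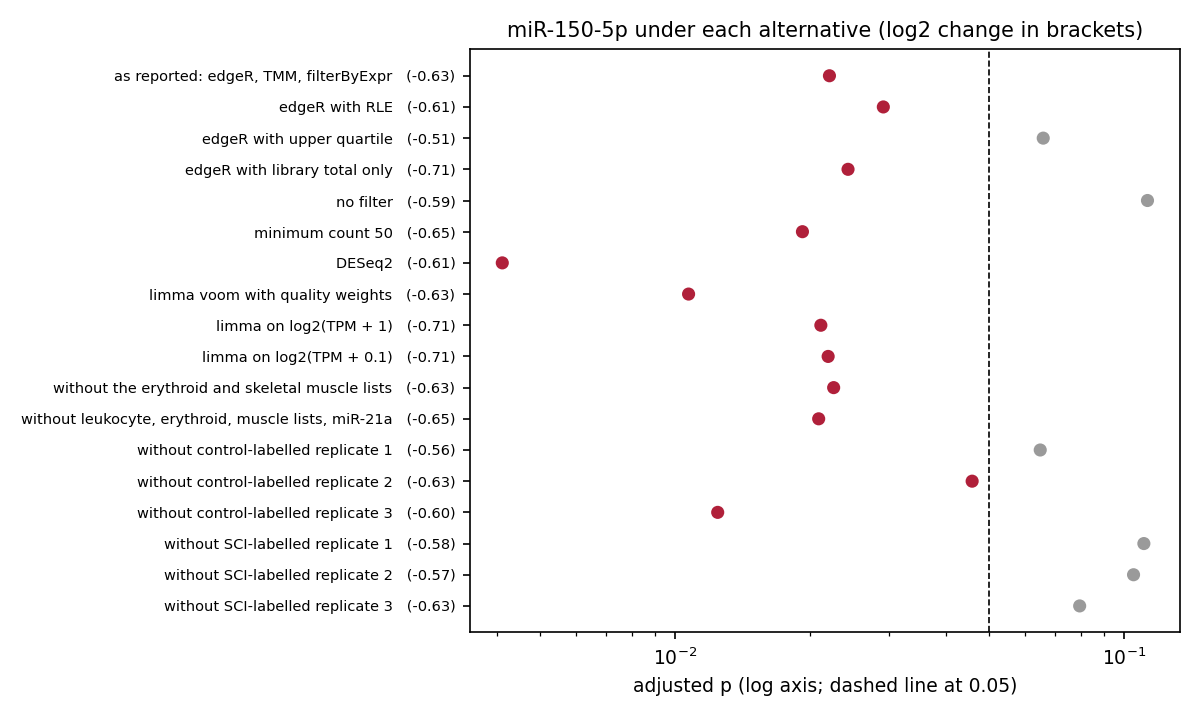
Adjusted p of miR-150-5p (x axis, log scale, dashed line at 0.05) in the fit as reported and under each other scaling, filter, tool or set of libraries, with the log2 change in brackets. Red points passed and grey points did not: the changes lie between -0.71 and -0.51, while the adjusted p falls on both sides of the line.

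The other arm of that hairpin, miR-150-3p, was close to the detection limit. Control-labelled libraries 1, 2 and 3 held 11, 4 and 18 of its reads and SCI-labelled libraries 1, 2 and 3 held 23, 6 and 15, so the groups overlapped. Its log2 change was 0.23 (SE 0.52; edgeR adjusted p = 0.753). The 3p share of the hairpin's reads was 0.620%, 0.252% and 0.760% for control-labelled and 1.59%, 0.509% and 0.898% for SCI-labelled cord. The difference in change between the arms was 0.86 on the log2 scale and did not pass (diffSpliceDGE of edgeR, adjusted p = 0.137). In that test 30.2% of the 179 hairpins with both arms tested were called.

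miR-342-3p, the main product of the Evl hairpin, showed no difference that passed the test. Control-labelled libraries 1, 2 and 3 gave 2266, 1907 and 3027 counts, or 363, 345 and 356 CPM. SCI-labelled libraries 1, 2 and 3 gave 3239, 2543 and 2410 counts, or 401, 394 and 273 CPM. With TMM, SCI-labelled libraries 1 and 2 were above every control-labelled library and SCI-labelled library 3 was below every one. Scaled to the library total alone, control-labelled libraries 1, 2 and 3 held 344, 342 and 411 CPM. The SCI-labelled ones then held 410, 358 and 271 CPM, so control-labelled library 3 was the highest of all. The log2 change was 0.01 (SE 0.21; edgeR adjusted p = 0.983), with a 95% interval from -0.47 to 0.48. The coefficient of variation with TMM was 2.51% for control-labelled and 20.2% for SCI-labelled cord. The first depends on the scaling and the second on SCI-labelled library 3, and a difference in spread was not tested. Without SCI-labelled library 3 the change was 0.19 and did not pass either (edgeR adjusted p = 0.557).

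miR-342-5p, the minor arm, also did not pass. Control-labelled cord gave 56, 60 and 65 counts, or 8.97, 10.9 and 7.65 CPM, for libraries 1, 2 and 3. SCI-labelled cord gave 58, 54 and 84 counts, or 7.19, 8.37 and 9.52 CPM. SCI-labelled library 3, the lowest for the 3p arm, was the highest of its group for the 5p arm. The log2 change was -0.13 (SE 0.25; edgeR adjusted p = 0.721), with a 95% interval from -0.69 to 0.44.

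Both arms of miR-342 come from 1 precursor, and a ratio of counts within a library does not depend on library scaling. The 3p arm had 40.5, 31.8 and 46.6 times the counts of the 5p arm in control-labelled libraries 1, 2 and 3. In SCI-labelled libraries 1, 2 and 3 it had 55.8, 47.1 and 28.7 times. It made up between 96.6% and 98.2% of the hairpin's reads in each of the 6 libraries. The change in arm usage was 0.13 on the log2 scale and did not pass (diffSpliceDGE of edgeR, adjusted p = 0.778). The nearest other hairpin in the RefSeq table is Mir345, 178254 bases away. From it, miR-345-3p passed with a log2 change of -0.98 (edgeR adjusted p = 0.00469), and miR-345-5p did not pass, at -0.22 (0.615).

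**Figure D3:**
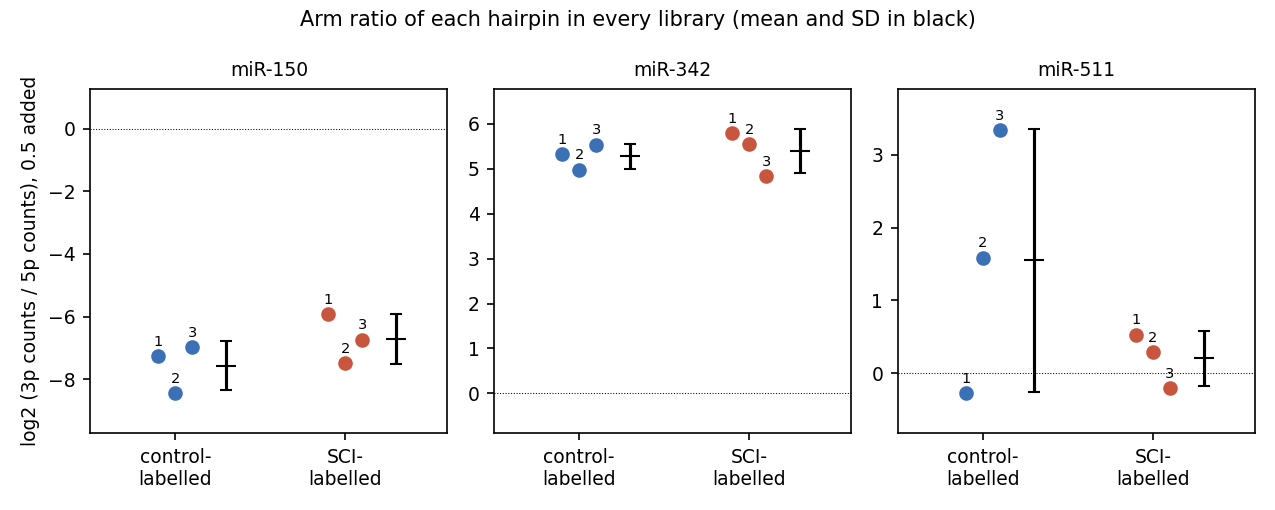
Log2 ratio of 3p to 5p counts, with 0.5 added to each count (y axis, a different scale in each panel), for the hairpins of miR-150, miR-342 and miR-511 in the 6 libraries. Points are libraries with their replicate numbers, and black marks are the mean and SD. miR-150 lies far below 0 and miR-342 far above it in each library, while miR-511 crosses 0.

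miR-511-3p, the arm regarded as the functional product in mouse macrophages, was rare. Control-labelled libraries 1, 2 and 3 gave 9, 19 and 45 counts, or 1.44, 3.44 and 5.30 CPM. SCI-labelled libraries 1, 2 and 3 gave 6, 5 and 6 counts, or 0.743, 0.775 and 0.680 CPM. The SCI-labelled libraries were alike and all below the control-labelled ones, which differed among themselves beyond counting error. The exact Poisson 95% interval of 9 counts runs from 4.12 to 17.1 and that of 45 counts from 32.8 to 60.2. That of 6 counts runs from 2.20 to 13.1, so control-labelled library 1 and the SCI-labelled libraries are not separated by counting alone. Such intervals cover counting error only.

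Neither arm of miR-511 passed the count filter, and neither was part of the test over 614 rows. In edgeR with no filter, over 1411 rows of which 18.9% were called and 11% were called lower, miR-511-3p was called lower. Its log2 change was -2.21 (SE 0.51; edgeR adjusted p = 0.000161), or 4.62-fold. DESeq2 over the same rows gave -2.19 (adjusted p = 0.0064). An exact two-sided permutation test gave p = 0.1, the smallest possible with 3 libraries against 3. Leaving out 1 library at a time kept edgeR's adjusted p between 1.63e-06 and 0.0072, with changes from -2.59 to -1.71. The change was smallest without control-labelled library 3 (-1.71, edgeR adjusted p = 0.00508), which held 45 of the 73 control-labelled counts.

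The sums of other immune miRNA lists did not share 1 order over the control-labelled libraries. Library 3, with the most miR-511-3p, had the lowest sum of the leukocyte list, at 5025 CPM against 8855 and 11191 CPM in libraries 1 and 2. It also had the lowest sum of a list of macrophage activation and inflammation, at 98401 CPM against 154004 and 127241 CPM. The largest part of that sum was miR-21a-5p. It had the highest sum of the lymphocyte list, at 21537 CPM against 16517 and 19426 CPM. The lymphocyte sum was led by miR-181a-5p (5136, 5871 and 7053 CPM in libraries 1, 2 and 3) and miR-29a-3p (3519, 3953 and 6963 CPM). Of the miRNAs on both the leukocyte and the lymphocyte list, miR-142a-3p, miR-142a-5p, miR-155-5p and miR-146a-5p were lowest in library 3. The rare miR-150-3p was highest there. Library 3 also had the most skeletal muscle miRNA, and the part of that tissue in the result was not tested.

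miR-511-5p was rarer still and did not separate the groups. The control-labelled counts were 11, 6 and 4 and the SCI-labelled counts 4, 4 and 7, for libraries 1, 2 and 3. The ranges overlapped, and with no filter the log2 change was -0.67 (SE 0.63; edgeR adjusted p = 0.552). The 3p arm held 45.0%, 76.0% and 91.8% of the hairpin's reads in control-labelled libraries 1, 2 and 3, and 60.0%, 55.6% and 46.2% in the SCI-labelled ones. With no filter the difference in change between the arms was -1.54 and did not pass (diffSpliceDGE of edgeR, adjusted p = 0.270).

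The tested members were compared with each other through their log2 count ratio within each library, over 3 pairs. miR-150-5p relative to miR-342-3p stood at -0.36, -0.27 and -0.37 for control-labelled cord and at -1.19, -1.12 and -0.54 for SCI-labelled cord. The groups did not overlap, with a difference of -0.62 (exact two-sided permutation p = 0.1, the smallest possible; 0.15 adjusted over the 3 pairs). SCI-labelled library 3 lay nearest to the control-labelled group because miR-342-3p was low there. miR-150-5p relative to miR-342-5p differed by -0.50, again without overlap (exact permutation p = 0.1, adjusted 0.15). The ratio of the miR-342 arms overlapped between the groups (difference 0.11, exact permutation p = 0.7, adjusted 0.7). With 3 libraries per group none of these comparisons could pass a threshold of 0.05.

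Most other miRNAs of white blood cells were lower in SCI-labelled cord. Of 9 tested members of a leukocyte list, 8 were lower in SCI-labelled cord and 1, miR-150-3p, did not pass, against 23.1% of all rows called lower. The median log2 change of the list was -2.83, against -0.07 over all tested rows. The lower ones included the pan-leukocyte miR-142a-5p (-3.88) and miR-142a-3p (-2.83), the neutrophil and monocyte miR-223-3p (-3.75), miR-155-5p of activated immune cells (-2.23), and miR-146b-5p (-1.38) and miR-146a-5p (-0.86), which restrain NF-kB signalling. The same number, 8, was called with each other scaling. Without SCI-labelled library 3 there were 6 of 10, and without control-labelled library 3 there were 9 of 10. Over all rows tested in these fits, 87 of 638 and 179 of 634 were called lower. The summed level of the 10 listed miRNAs ran from 5025 to 11191 CPM over control-labelled and from 2658 to 3091 CPM over SCI-labelled libraries. In tissue sampled whole, fewer cells of a type and less of the miRNA per cell cannot be told apart.

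**Figure D4:**
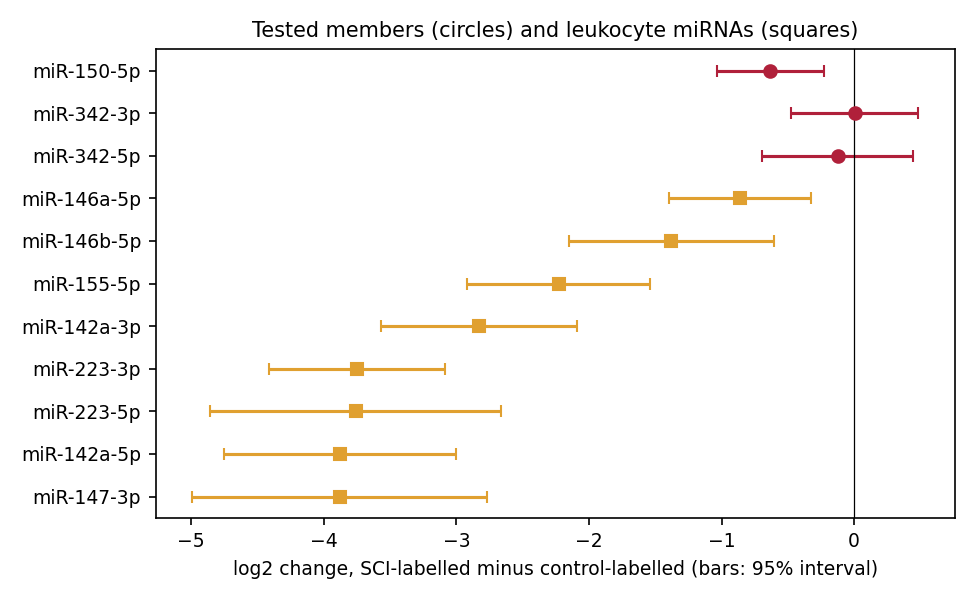
Log2 change between the groups (x axis, SCI-labelled minus control-labelled, bars of 95% intervals) of the 3 tested members (circles) and of the 8 leukocyte miRNAs called lower (squares). The members lie between -0.63 and 0.01, and the leukocyte miRNAs between -3.88 and -0.86.

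miR-150-5p and miR-342-3p were also set against these 8 leukocyte miRNAs within each library, where scaling plays no part. This description was added after the values had been seen and has no test. The 8 are the list members called lower, and miR-150-3p was left out. A member that changed less had to rise relative to them, so the ratios restate the changes given above. miR-150-5p relative to miR-223-3p stood at 1.32, 1.11 and 1.54 on the log2 scale for control-labelled cord and at 4.94, 4.08 and 4.38 for SCI-labelled cord, a difference of 3.14. Relative to miR-146a-5p, the listed miRNA with the smallest fall, it differed by 0.22 and the groups overlapped. They also overlapped relative to miR-146b-5p, with a difference of 0.63. Over the 8 ratios the differences of miR-150-5p ran from 0.22 to 3.23, and 6 of the 8 did not overlap between the groups. Those of miR-342-3p ran from 0.84 to 3.85, and 8 of the 8 did not overlap. The same counts were not made for other rows, so they do not set these members apart.

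The lymphocyte list, which holds miRNAs with roles in T and B cell development, was split. Of 15 tested members 10 were lower, 0 higher and 5 did not pass, with a median log2 change of -2.23. Over all tested rows 23.1% were called lower. The 5 that did not pass were miR-150-3p, miR-181a-5p (0.07), miR-181b-5p (0.07), miR-29a-3p (-0.10) and miR-29b-3p (0.34). The lower ones included members of the miR-17-92 cluster, a driver of lymphocyte and other cell proliferation. These were miR-19a-3p (-4.46), miR-19b-3p (-3.61), miR-18a-5p (-2.84), miR-20a-5p (-2.71), miR-17-5p (-2.55) and miR-92a-3p (-1.70). Of the 10 that were lower, 4 also stand on the leukocyte list.

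Of 13 tested members of a list of macrophage activation and inflammation, 8 were lower and 5 did not pass, with a median log2 change of -0.86. The share called lower over all tested rows was 23.1%. miR-21a-5p (-3.06) and miR-27a-3p (-0.85) were among the lower ones. let-7c-5p (-0.10), miR-24-3p (-0.33), miR-125a-5p (0.07), miR-132-3p (-0.09) and miR-124-3p (-0.52) did not pass. Without SCI-labelled library 3 there were 5 lower, against 87 of all 638 rows tested. Erythroid miRNAs moved with the groups as well: 6 of 6 tested members were lower, and their sum ran from 14025 to 43094 CPM over control-labelled and from 3024 to 6331 CPM over SCI-labelled libraries. With the erythroid and skeletal muscle lists left out of the table, the log2 change of miR-150-5p was -0.63 (edgeR adjusted p = 0.0225). Leaving these rows out alters the scaling and the fit, not the counts of miR-150-5p. The part of blood or muscle in its change was not tested.

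**Figure D5:**
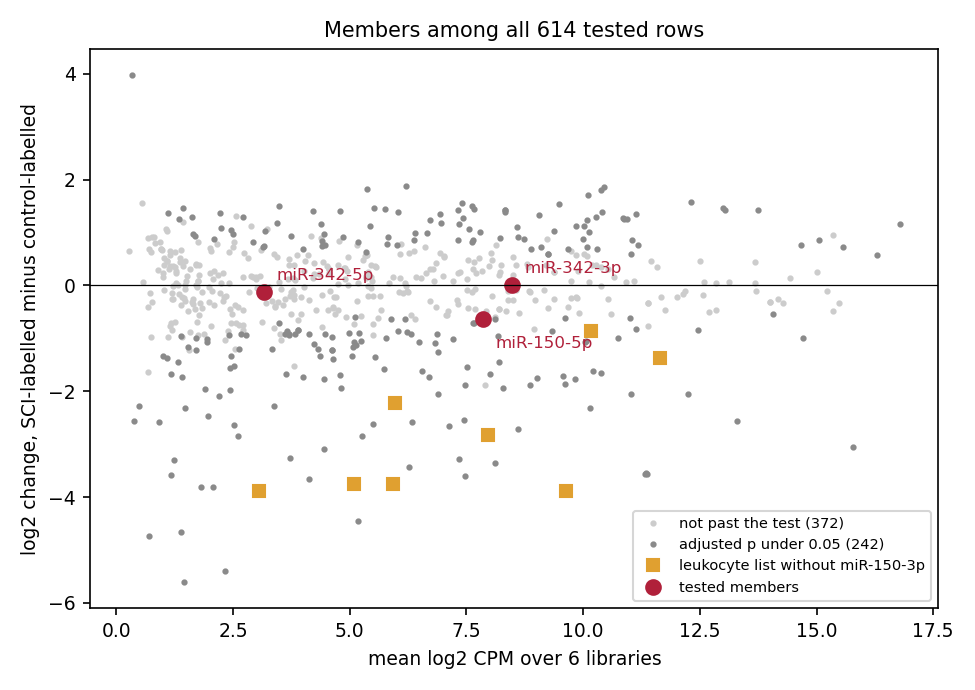
Log2 change (y axis, SCI-labelled minus control-labelled) against mean log2 CPM (x axis) for the 614 tested rows, with the 242 called rows in dark grey. The tested leukocyte list without miR-150-3p is in orange squares and the 3 tested members are in red circles. The members lie in or at the edge of the central band. The plotted leukocyte miRNAs lie lower than the members, with miR-146a-5p (-0.86) nearest to miR-150-5p (-0.63).

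The rows whose pattern over the 6 libraries was nearest to each tested member were found by the root mean square difference of mean-centred log2 levels, among named rows of at least 10 CPM. For miR-150-5p they were miR-27b-3p (distance 0.06), miR-26b-5p (0.07) and miR-423-3p (0.12), each called lower, with log2 changes of -0.54, -0.62 and -0.63. For miR-342-3p they were miR-129-2-3p (0.15), miR-672-5p (0.15) and miR-101a-3p (0.17), with changes of 0.26, 0.08 and 0.04 that did not pass. For miR-342-5p they were miR-676-3p (0.09), miR-192-5p (0.10) and let-7g-5p (0.10), with changes of -0.20, -0.27 and -0.11 that did not pass. The distance takes in the difference between the groups, so rows near a member have changes like its own. None of the 9 is on the leukocyte list, which follows in large part from this.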

How the data were processed

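The authors deposited 1 table with whole-number read counts per miRNA, not normalized, and columns named TPM for the same 6 libraries. The deposited TPM columns equal CPM, the counts scaled to the column total, and hold no length term. NEBNext small RNA libraries were made from 3 µg of total RNA, per the labels' protocols. Bowtie and mm10 are named in the submitters' processing notes; the sources used here do not give the miRBase release or how reads with several matches were treated. Columns were matched to samples by the sample descriptions.

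The main tool was edgeR 4.0.16 in R 4.3.3. Its filterByExpr with a minimum count of 10 kept 614 rows, scaling was by TMM, and the robust quasi-likelihood F test had group as its only term. Benjamini-Hochberg adjustment ran over all tested rows, with a threshold of 0.05. SEs are the size of the log2 change over the square root of F, and 95% intervals use the t quantile at the fit's degrees of freedom. Arms were tested with diffSpliceDGE over 179 hairpins. Alternatives used DESeq2 1.42.0 and limma 3.58.1. The steps were tested on simulated data. On the reading that each library is 1 mouse, p-values measure the spread between mice.

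The members and lists were chosen with earlier results of these data known. The named miRNAs are all members, the nearest 3 rows to each tested member, and list members; list members named beyond the most abundant were chosen after their values were seen, and Mir345 for its position.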

Additional observations from a re-analysis of the deposited data

How the results depend on the processing

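Precision was limited by 3 libraries per group, and for miR-511 by counts of 4 to 45 per library. miR-150-5p kept its direction in all 18 alternatives and its call in 11. The call was lost with the upper quartile (log2 -0.51), with no filter (-0.59), with the replicate number as a block (replicate block, -0.63, edgeR adjusted p = 0.0665) and in 4 of 6 fits that left out 1 library, whose changes ran from -0.63 to -0.56. The cause was not tested. The labels do not say whether same-numbered libraries form pairs. The correlations of their deviations from the group means were -0.27, 0.19 and -0.18 for numbers 1, 2 and 3. Only number 2 correlated best with its own number. With 3 libraries per group such correlations cannot exclude pairs.

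miR-342-3p, with a change near 0, changed sign without passing: -0.0786 with the library total, -0.0143 at a minimum count of 50, -0.0680 with limma voom, -0.0935 with limma on log2(TPM + 1) and -0.0938 on log2(TPM + 0.1), -0.0155 with the replicate block, and -0.0104 without the leukocyte, erythroid and skeletal muscle lists and miR-21a, an alternative added after seeing the data. Leaving out each library gave -0.0588 to 0.19 for miR-342-3p, -0.21 to 0.0029 for miR-342-5p, -0.0617 to 0.40 for the arm usage of miR-342 and -0.0891 to 0.39 for the ratio of its arms. Leaving out each library gave 54 to 152 rows called higher and 87 to 179 called lower.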
